A study of Mus musculus with 26 samples.

Results

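Type I interferon response genes are genes that cells switch on when interferon alpha or beta binds the receptor IFNAR. This account follows 40 of them, listed by symbol, among the 24848 genes of the deposited tables. All 40 were in the tables, and all 40 passed the filter on low counts. They were measured by RNA sequencing in regulatory T cells (Treg, purified as CD4+Foxp3+) and conventional T cells (Tconv, CD4+Foxp3-) of C57BL/6 mice. The mice had active EAE, or experimental autoimmune encephalomyelitis, in which T cells against myelin attack brain and spinal cord. At day 14 cells were taken either from the central nervous system (here CNS) or from draining lymph nodes (dLN). Control mice (Ctrl) had the genotype Foxp3Cre-ERT2, a Cre recombinase that tamoxifen activates and that is made where Foxp3 is expressed. Knockout mice (icKO) carried the same Cre and Tnfrsf1bFlox/Flox, floxed alleles of the gene of the TNF receptor TNFR2. The Cre acts in Foxp3+ cells, so Tconv icKO cells are conventional cells from mice whose Treg cells were targeted. Mice of both genotypes received tamoxifen from day 7 to day 14, so the drug and the Cre are shared by all 8 groups and there is no group without EAE. The groups are named by tissue, cell type and genotype. There were 4 libraries in either CNS Tconv group and 3 in each of the others.

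Type I interferons signal through IFNAR1 and IFNAR2 and the kinases JAK1 and TYK2. These phosphorylate STAT2, which acts with IRF9 in a complex called ISGF3. ISGF3 binds the interferon-stimulated response element (ISRE) in promoters and raises a shared set of genes. They include Irf7, a transcription factor that amplifies interferon production, sensors of viral RNA, antiviral effectors such as the IFIT and OAS proteins, and Usp18, which damps signalling at the receptor. Interferon beta is used to treat multiple sclerosis, and in EAE the loss of IFNAR is known to worsen disease.

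The promoters show how widely the ISRE is spread among these genes. RefSeq start sites on GRCm38.p6 (mm10) were found for 30 of the 40 genes, and windows of 300 bases, from 250 before to 50 after each start site, were searched on both strands. The core of the ISRE, searched as GAAA, then 2 bases of any kind, then GAAA, was in the windows of 15 of these 30 genes, against 3.99% of all 27025 genes with a window. The longer form, the core followed directly by CT and so always overlapping it, was in 8 of 30 (26.7%), against 0.303% of all genes. A match describes letters and not binding, and its absence says only that these letters are not in the window. The 160 bases before the start site follow for 5 genes that rose in the CNS in Treg cells of both genotypes and whose core matches, 2 or 3 in each, all lie before the start site. Letters are 5′ to 3′ on the gene's strand, and capitals mark the core on either strand.
Isg15, chr4:156200819-156200978, minus strand: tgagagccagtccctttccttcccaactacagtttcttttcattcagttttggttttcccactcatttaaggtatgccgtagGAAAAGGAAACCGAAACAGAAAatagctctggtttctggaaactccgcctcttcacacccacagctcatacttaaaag
Ifit1, chr19:34640729-34640888, plus strand: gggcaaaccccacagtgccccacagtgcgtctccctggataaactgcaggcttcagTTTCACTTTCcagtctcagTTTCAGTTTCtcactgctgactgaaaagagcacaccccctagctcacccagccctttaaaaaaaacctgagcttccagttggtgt
Ifit3, chr19:34583369-34583528, plus strand: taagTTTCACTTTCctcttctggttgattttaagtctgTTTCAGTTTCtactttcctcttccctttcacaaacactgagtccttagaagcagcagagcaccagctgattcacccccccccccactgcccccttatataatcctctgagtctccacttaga
Oas1a, chr5:120907526-120907685, minus strand: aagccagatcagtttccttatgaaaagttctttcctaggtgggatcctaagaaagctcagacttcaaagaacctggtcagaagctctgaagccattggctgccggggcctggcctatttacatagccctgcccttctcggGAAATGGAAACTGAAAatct
Bst2, chr8:71537473-71537632, minus strand: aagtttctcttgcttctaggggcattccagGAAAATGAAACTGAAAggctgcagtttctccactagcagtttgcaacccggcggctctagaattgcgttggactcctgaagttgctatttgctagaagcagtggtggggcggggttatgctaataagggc
In Isg15 the 3 core matches overlap and begin 78, 72 and 66 bases before the start site. Overlapping pairs begin 130 and 124 bases before it in Bst2 and 20 and 14 bases before it in Oas1a. Ifit1 and Ifit3 have separate pairs, read on the opposite strand, at 104 and 85 and at 156 and 122 bases before the start site.

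Several of the genes are neighbours. Ifit2, Ifit3 and Ifit1 lie in this order on the plus strand of chromosome 19, at chr19:34550694-34576419, chr19:34583531-34588731 and chr19:34640871-34650009. Oas2, Oas3 and Oas1a lie on the minus strand of chromosome 5, and Oasl2 and Oasl1 follow each other on its plus strand. Rsad2 and Cmpk2 point away from each other on chromosome 12, with 12.8 kb between them. Dtx3l and Parp9, on opposite strands of chromosome 16, overlap by 681 bases in the GENCODE annotation. The library kit does not mark strand, so reads in that overlap cannot be assigned to either gene by strand. Reads of Ifit1 and Ifit3, Oas1a, Slfn8, Trim30a and Ifi27l2a can also be shared with near-identical relatives, and their counts are uncertain to that extent.

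Before the results, 6 libraries need mention. One of them, labelled dLN Tconv icKO replicate 3, had a total of 7.78 M counts and 6005 genes above 0, with 24 of the 40 interferon response genes above 0. Its highest rank correlation with another library was 0.70. The other 25 libraries held 12.4 to 18.5 M counts and 11089 to 14255 genes. It is left out of the values below unless all 26 libraries are named, which leaves dLN Tconv icKO with 2. In 5 of the 8 CNS Tconv libraries (Ctrl 3 and 4, icKO 2, 3 and 4), the name of the deposited table carries the prefix used elsewhere for the other genotype. Groups follow the sample labels. Counts of called genes among the 40 are also given without these 5 for comparisons of 2 groups that use CNS Tconv cells. They are given as well for the test of tissue differences between cell types. For interactions with genotype, and for counts by sign, unadjusted p or overlap, they are not given without these 5. Calls among other genes were not checked without them. Tnfrsf1b, the targeted gene, had 454, 711 and 664 CPM in CNS Treg Ctrl and 509.5, 357 and 352 CPM in CNS Treg icKO libraries, where the groups overlapped, and 793, 736 and 857 against 619.8, 619.5 and 618 CPM in dLN Treg, where they did not. It was higher in each CNS Tconv icKO library (269 to 390 CPM) than in each Ctrl library (176 to 229 CPM). CPM is the count divided by the library's total in M (mega) counts, after TMM scaling, and values in a list are in the order of replicates 1, 2, 3 and 4. T cell markers were present in all 25 libraries, and the summed CPM of 7 Treg markers was 2261 to 3429 in Treg and 234 to 981 in Tconv libraries.

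Transcripts of myeloid cells differed between the groups along with several results. All 16 monocyte and macrophage markers were above 0 in all 6 CNS Treg libraries, with a summed level of 8553 to 12156 CPM. In dLN Treg libraries 15 or 16 were above 0 and the sum was 600.3 to 1795 CPM. CNS Tconv libraries summed to 102 to 895 CPM with 7 to 16 above 0, and dLN Tconv libraries to 276 to 658 CPM with 14 to 16 above 0. Markers of microglia (8 genes), conventional dendritic cells (9) and plasmacytoid dendritic cells (12) were likewise higher in CNS than in dLN Treg libraries, at 1768 to 2398 against 90.5 to 141 CPM, 3147 to 3758 against 42.0 to 449 CPM, and 361 to 426 against 61.0 to 101 CPM. Summed markers of neutrophils were 73.9 to 951 CPM in CNS Treg and 9.90 CPM or less in dLN Treg libraries, and those of CD8 T and NK cells 746 to 3716 against 214 to 398 CPM. Summed B cell markers overlapped, at 23.8 to 127 against 63.3 to 74.8 CPM. Siglech is counted in both the microglia and the plasmacytoid dendritic cell list, so these sums share a gene. Of the microglia markers, Sall1 was at 0 in all dLN Treg libraries, and no marker of these monocyte, microglia and dendritic cell lists was at 0 in all libraries of a CNS Treg group. These are mixed-cell measurements, in which more cells of a type and more RNA per cell cannot be told apart. The sample titles call the replicates mice and say no more of how they were made, and p-values measure the spread between these libraries.

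Levels were compared between genes per length. On the deposited TPM scale, which divides by transcript length, Ifi27l2a, a small mitochondrial protein, was the highest of the 40 in all 8 groups. Its level was 8651 ± 1007 TPM in CNS Treg Ctrl (SD, n = 3) and 3483 ± 926 TPM in dLN Tconv Ctrl (SD, n = 3). Bst2 (tetherin, which holds budding virus at the membrane), Lgals3bp (a secreted glycoprotein) and Zbp1 (a sensor of Z-form nucleic acid) filled ranks 2 and 3 in all groups. The GTPase Mx2 and the synthetase Oas2 stood at ranks 38 to 40 everywhere, at 4.40 ± 1.71 and 5.28 ± 2.54 TPM in CNS Treg Ctrl (SD, n = 3). The difference between these 2 means was smaller than either SD. The GENCODE annotation types Mx2 as a polymorphic pseudogene. Irf7 moved up from rank 10 in both dLN Treg groups to rank 4 in CNS Treg Ctrl and rank 6 in CNS Treg icKO.

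**Figure D1:**
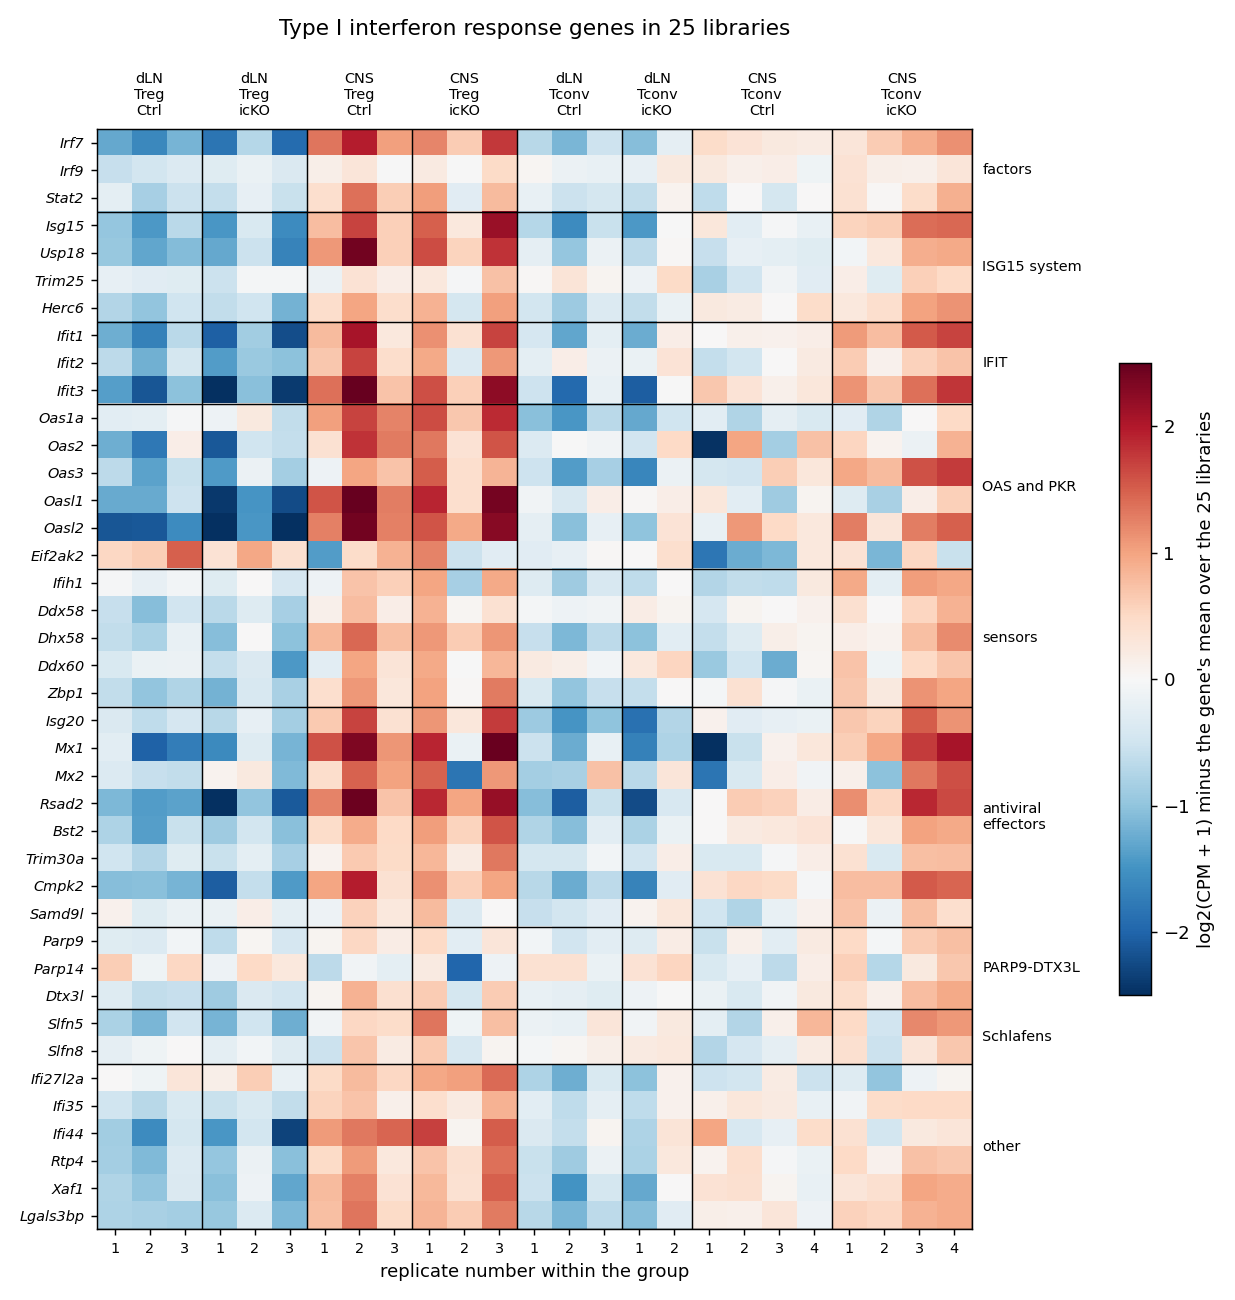
Level of the 40 genes (rows, grouped by role) in 25 libraries (columns, grouped by cell type, tissue and genotype), as log2(CPM + 1) minus the gene's mean over the 25 libraries, red above and blue below. CNS Treg columns are mostly red and dLN columns mostly blue, CNS Treg icKO replicate 2 is paler than its group, and Parp14 and Eif2ak2 have no red block in CNS Treg columns.

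The broadest difference was between tissues in Treg cells. In Ctrl mice 28 of the 40 genes rose in CNS Treg cells relative to dLN Treg cells and 0 fell (edgeR quasi-likelihood test, Benjamini-Hochberg adjusted p under 0.05). Of all 13500 genes tested, 13.3% rose and 8.55% fell. The median log2 fold change of the 40 was 1.47, from -0.70 to 3.76, and 38 were above 0, as were 51% of all genes. An unadjusted p under 0.05 was found for 31, against 35.4% of all genes. For 34 of the 40, each CNS library lay above each dLN library, which held for 22.1% of all genes. In icKO mice 31 of 40 rose and 0 fell, with 13.1% of all genes called higher and 9.41% lower. The median there was 1.64, with 38 above 0 against 52.4% of all genes, and the libraries did not overlap for 31 genes, against 20.9% of all genes. All 28 genes called in Ctrl were also called in icKO mice, where Ifi27l2a, Ddx60 and Slfn5 were called in addition. The difference between the genotypes in this tissue effect was not tested.

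All 3 transcription factors rose in both genotypes. Irf7, at chr7:141262706-141266481 on the minus strand, had 572, 882 and 457 CPM in CNS Treg Ctrl against 92.2, 73.0 and 99.5 CPM in dLN Treg Ctrl libraries. In icKO mice it had 524, 351 and 768 CPM in the CNS and 62.8, 136 and 58.3 CPM in the dLN. The CNS libraries were all higher and the groups did not overlap, with log2 fold changes of 2.85 ± 0.34 (SE; edgeR adjusted p = 9.23e-06) and 2.68 ± 0.34 (edgeR adjusted p = 1.41e-05). Stat2, which carries the activation domain of ISGF3, had 131, 257 and 151 CPM in CNS Treg Ctrl against 82.4, 54.7 and 66.9 CPM in dLN Treg Ctrl libraries, and 204, 80.1 and 169.7 against 64.3, 85.3 and 66.6 CPM in icKO. The Ctrl groups did not overlap, while CNS Treg icKO replicate 2 lay inside the dLN range; the log2 fold changes were 1.40 ± 0.31 and 1.07 ± 0.30 (edgeR adjusted p = 0.00263 and 0.0147). Irf9, the DNA-binding partner, had the smallest change of the 3, from 138, 149.7 and 164 to 229, 254 and 206 CPM between dLN and CNS in Ctrl and from 166, 183 and 160.2 to 243, 206 and 289 CPM in icKO. Its groups did not overlap in either genotype, at 0.61 ± 0.14 and 0.53 ± 0.14 on the log2 scale (edgeR adjusted p = 0.00346 and 0.00808).

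The ISG15 system attaches the ubiquitin-like protein ISG15 to other proteins and removes it. Isg15, Usp18, which removes ISG15 and blocks IFNAR2 signalling, and Herc6, its ligase in mice, rose in both genotypes, and Trim25 was not called in either. Usp18 had 195, 489.8 and 138 CPM in CNS Treg Ctrl against 46.5, 36.7 and 42.7 CPM in dLN Treg Ctrl libraries. In icKO it had 283, 134 and 319.7 against 37.0, 62.3 and 28.03 CPM. Both pairs of groups were apart, with CNS Treg Ctrl replicate 2 the highest of all libraries, and the log2 fold changes were 2.71 ± 0.42 and 2.53 ± 0.42 (edgeR adjusted p = 0.000136 and 0.000206). Isg15 differed by 2.13 in Ctrl and 2.56 in icKO, and Herc6 by 1.38 and 1.37 (log2 fold change).

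Among the OAS family, Oas1a, Oas3, Oasl1 and Oasl2 rose in both genotypes, and Oas2 and the kinase gene Eif2ak2 (PKR, which stops translation on viral RNA) were not called. The largest fold of the 40 in both genotypes was that of Oasl2. This relative of the oligoadenylate synthetases, with ubiquitin-like domains, had 142, 319 and 142 CPM in CNS Treg Ctrl and 12.6, 12.7 and 19.0 CPM in dLN Treg Ctrl libraries. In icKO it had 176, 115 and 287 and 7.74, 20.8 and 4.23 CPM. The groups were far apart, at 3.76 ± 0.54 and 4.14 ± 0.55 on the log2 scale, or 13.6-fold and 17.6-fold (edgeR adjusted p = 6.98e-05 and 2.53e-05). Oasl1, known to hold back translation of Irf7 mRNA, had 54.4, 132 and 43.9 against 6.74, 6.80 and 12 CPM in Ctrl and 68.9, 23.9 and 97.1 against 2.49, 5.71 and 2.95 CPM in icKO libraries. It too showed no overlap, at 3.18 ± 0.52 and 4.09 ± 0.54 on the log2 scale (edgeR adjusted p = 0.000222 and 2.42e-05).

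All 3 IFIT genes, whose proteins bind viral RNA or block its translation, rose in both genotypes. Ifit3 differed by 3.20 and 3.54, Ifit1 by 2.39 and 2.76, and Ifit2 by 1.80 and 1.81 (log2 fold change in Ctrl and icKO). Of the 8 genes for Mx GTPases and other effectors, 6 rose in both: Isg20, Mx1, Rsad2, Bst2, Trim30a and Cmpk2. Mx2 and Samd9l were not called. Rsad2 (viperin, which makes a chain-terminating nucleotide) had 103, 240.2 and 70.7 CPM in CNS Treg Ctrl against 19.2, 15.6 and 16.4 CPM in dLN Treg Ctrl libraries, and 161, 86.0 and 199 against 5.39, 21.2 and 9.30 CPM in icKO. Its neighbour Cmpk2, which supplies viperin with substrate, had 159.5, 315 and 104 against 37.5, 38.0 and 34.9 CPM in Ctrl and 176, 122 and 159 against 18.5, 52.1 and 29.3 CPM in icKO. Neither gene's groups overlapped in either genotype. The log2 fold changes were 3.01 ± 0.56 and 3.63 ± 0.57 for Rsad2 and 2.39 ± 0.40 and 2.19 ± 0.39 for Cmpk2 (edgeR adjusted p = 0.000679, 0.000133, 0.000262 and 0.000455). Bst2, whose promoter is printed above, had 209, 289 and 214 against 88.0, 57.9 and 102 CPM in Ctrl and 312, 222 and 449 against 80.7, 109.6 and 72.3 CPM in icKO, without overlap (1.52 ± 0.29 and 1.90 ± 0.30, edgeR adjusted p = 0.000992 and 0.00012).

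Of the 5 sensors, Ddx58 (RIG-I), Dhx58 (LGP2) and Zbp1 rose in both genotypes, Ddx60 was called in icKO alone and Ifih1 (MDA5) in neither. In the PARP9-DTX3L axis, Dtx3l rose in both genotypes (0.99 and 0.91 on the log2 scale) and Parp9 and Parp14 were not called. Parp14 had the most negative value of the icKO comparison, -0.59 ± 0.39 (edgeR adjusted p = 0.29), and Eif2ak2 that of the Ctrl comparison, -0.70 ± 0.58 (edgeR adjusted p = 0.417). Among the remaining induced genes, Ifi35, Ifi44, Rtp4, Xaf1 and Lgals3bp rose in both. Lgals3bp had 792, 1184 and 653 against 274, 269 and 260.3 CPM in Ctrl and 846, 729.7 and 1167 against 245, 372 and 217 CPM in icKO libraries. Its spread was small and the groups did not overlap, at 1.71 ± 0.24 and 1.72 ± 0.24 on the log2 scale (edgeR adjusted p = 5.7e-05 and 4.24e-05). The genes called in neither genotype were Ifih1, Mx2, Oas2, Trim25, Parp9, Parp14, Slfn8, Eif2ak2 and Samd9l.

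With all 26 libraries the counts of genes that rose were 16 in Ctrl and 15 in icKO, all of them among those named above, and 0 fell; 4.1% and 3.74% of all 13054 genes tested then rose. The monocyte and macrophage, microglia, dendritic cell, neutrophil and CD8 T and NK cell markers moved in the same direction between dLN and CNS Treg libraries. Their part in the tissue differences was not tested. Within the CNS Treg libraries, the mean log2(CPM + 1) of the 40 genes was 6.84 in Ctrl replicate 1, 7.66 in replicate 2 and 6.94 in replicate 3. In icKO it was 7.46, 6.45 and 7.57. The monocyte and macrophage sum was 8981 to 12156 CPM in the Ctrl and 8553 to 11206 CPM in the icKO libraries. Whether the level of the 40 genes followed this sum within the CNS Treg libraries was not tested.

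**Figure D2:**
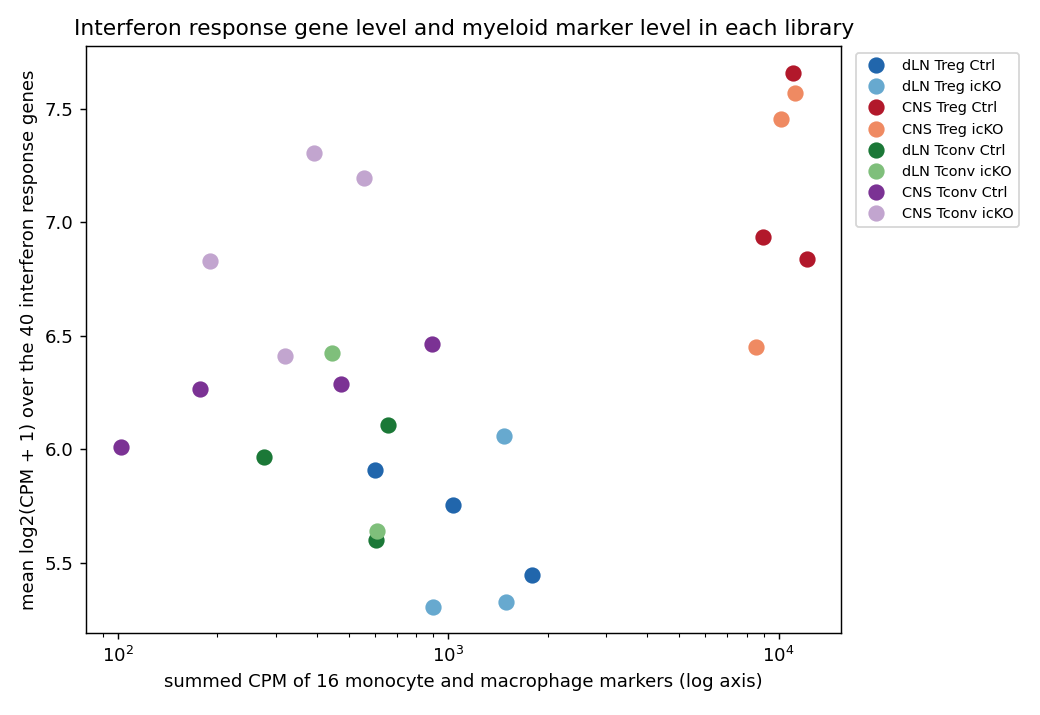
Each point is 1 of 25 libraries: horizontally the summed CPM of 16 monocyte and macrophage markers on a log axis, vertically the mean log2(CPM + 1) of the 40 interferon response genes. CNS Treg libraries stand apart at 8553 CPM of markers or more, with means of 6.45 to 7.66. CNS Tconv icKO libraries have means of 6.41 to 7.31 at 555.5 CPM or less. The part of the markers was not tested.

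Fewer genes passed the test between tissues in Tconv cells. In Ctrl mice 4 of the 40, Lgals3bp, Irf7, Cmpk2 and Bst2, rose in the CNS and 0 fell, against 5.97% of all genes that rose and 2.93% that fell (8.9% in either direction). The median log2 fold change of the 40 was 0.40. In icKO mice 13 rose and 0 fell, with a median of 0.75, against 7.81% and 6.3% of all genes. These 13 were the same 4 together with Isg15, Isg20, Ifit1, Ifit3, Dhx58, Oas3, Rsad2, Zbp1 and Herc6. CNS libraries lay above all dLN libraries for 15 genes in Ctrl (9.55% of all genes) and for 16 in icKO (20.1% of all genes), and below them for Trim25 in Ctrl (9.64% of all genes in that direction).

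Irf7 in CNS Tconv Ctrl libraries had 308, 284, 266 and 258 CPM and in dLN Tconv Ctrl libraries 138, 101 and 156 CPM. In icKO it had 278, 352, 422 and 501 CPM in the CNS and 108 and 192 CPM in the dLN. Each CNS library was above each dLN library, at 1.08 ± 0.31 and 1.37 ± 0.36 on the log2 scale (edgeR adjusted p = 0.0308 and 0.0121). Lgals3bp had 523, 514, 580.2 and 432 against 289, 213 and 299 CPM in Ctrl and 699, 677, 865 and 902 against 224 and 385 CPM in icKO. It was the most precise of these differences, 0.94 ± 0.23 and 1.37 ± 0.27 (edgeR adjusted p = 0.0116 and 0.00108), without overlap. Cmpk2 had 103, 115, 111 and 78.6 against 48.8, 33.0 and 50.3 CPM in Ctrl and 136, 137, 234 and 219.6 against 24.5 and 65.0 CPM in icKO (1.21 ± 0.37 and 2.02 ± 0.44, edgeR adjusted p = 0.0413 and 0.00315). Bst2 had 151, 178, 181 and 193 against 89.4, 71.7 and 126 CPM in Ctrl, all CNS libraries being higher (0.88 ± 0.27, edgeR adjusted p = 0.0484).

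In icKO mice the gene with the smallest p was Isg20, an exonuclease that degrades viral RNA, at chr7:78913424-78920396 on the plus strand. It had 183, 170.1, 330.4 and 252 CPM in CNS Tconv icKO against 30.7 and 69.2 CPM in dLN Tconv icKO libraries, a log2 fold change of 2.23 ± 0.42 (edgeR adjusted p = 0.000867). Oas3, which makes the activator of RNase L, had 198, 175, 306 and 340.1 against 31.6 and 90.2 CPM (2.07 ± 0.49, edgeR adjusted p = 0.00591). Rsad2 had 97.3, 62.0, 161 and 137 against 8.32 and 32.4 CPM (2.49 ± 0.62, edgeR adjusted p = 0.00885). None of these groups overlapped, and replicates 3 and 4 were the highest CNS Tconv icKO libraries for Isg20, Oas3 and Rsad2. Monocyte and macrophage markers were no higher in CNS than in dLN Tconv icKO libraries on average, 365 against 527 CPM, and in Ctrl they averaged 412 against 513 CPM. The sums of Treg markers were higher in CNS than in dLN Tconv libraries, at 544 to 981 against 234 to 275 CPM, as were those of CD8 T and NK cells, at 824 to 2028 against 235 to 306 CPM. Microglia markers summed to 215 to 332 CPM in CNS and 133 to 168 CPM in dLN Tconv icKO libraries, without overlap, and to 161 to 437 against 119 to 198 CPM in Ctrl. Of these 8 markers, Sall1, Tmem119 and Trem2 were at 0 in all of these dLN Tconv libraries, so the dLN sums come from the other 5. Plasmacytoid dendritic cell markers summed to 263 to 426 against 158 to 289 CPM in icKO and 103 to 789.5 against 114 to 385 CPM in Ctrl. The part of these 4 marker lists was not tested.

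These Tconv counts rest on few libraries. The Ctrl count was 0 without dLN Tconv Ctrl replicate 2, 1 without CNS Tconv Ctrl replicate 1 or 2 or dLN Tconv Ctrl replicate 1, 2 without CNS Tconv Ctrl replicate 3 or dLN Tconv Ctrl replicate 3, and 1 with all 26 libraries. The icKO count was 1 without dLN Tconv icKO replicate 1, 7 and 6 without CNS Tconv icKO replicates 3 and 4, 7 with all 26 libraries and 0 without the 5 CNS Tconv libraries with conflicting names, which leaves icKO with 1 CNS library. The Ctrl count was 4 without them, with Bst2 no longer called and Trim25 called.

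Whether the tissue difference was larger in Treg than in Tconv cells was tested directly in Ctrl mice, as an interaction. It was larger for 5 of the 40 genes and smaller for 0, against 2.55% and 1.12% of all genes. The 5 were Oasl1 (3.24 ± 0.66, edgeR adjusted p = 0.00786), Usp18 (2.64 ± 0.55, edgeR adjusted p = 0.00807), Ifit2 (1.90 ± 0.46, edgeR adjusted p = 0.0209), Oasl2 (2.81 ± 0.68, edgeR adjusted p = 0.0209) and Irf7 (1.77 ± 0.44, edgeR adjusted p = 0.0253), as differences of log2 fold changes (± SE). For Usp18 the 4 CNS Tconv Ctrl libraries had 60.5, 78.5, 76.7 and 74.1 CPM and the dLN Tconv Ctrl libraries 78.0, 46.5 and 82.5 CPM, which overlap, beside the separated Treg groups given above. Oasl1 had 21.5, 14.5, 8.96 and 18.5 CPM in CNS and 16.6, 13.1 and 19.9 CPM in dLN Tconv Ctrl libraries, again overlapping. Oasl2 had 51.6, 126, 83.8 and 71.1 and 49.99, 27.9 and 51.1 CPM there, without overlap. Ifit2 had 136, 276 and 114 CPM in CNS Treg Ctrl and 53.3, 36.0 and 62.2 CPM in dLN Treg Ctrl libraries, which were apart, and 55.8, 61.2, 85.7 and 99.0 and 71.4, 95.4 and 76.2 CPM in CNS and dLN Tconv Ctrl libraries, which overlapped. The median of the 40 was 0.90, with 38 above 0, against 51.9% of all genes. The count was 0 with all 26 libraries, 2 without CNS Treg Ctrl replicate 2 or dLN Treg Ctrl replicate 2, and 3 without dLN Treg Ctrl replicate 1 or dLN Tconv Ctrl replicate 3. Without the 5 libraries with conflicting names it was 7, with Irf7 no longer called. The myeloid markers given above differ between CNS Treg and the other 3 groups of this test, and their part was not tested.

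**Figure D3:**
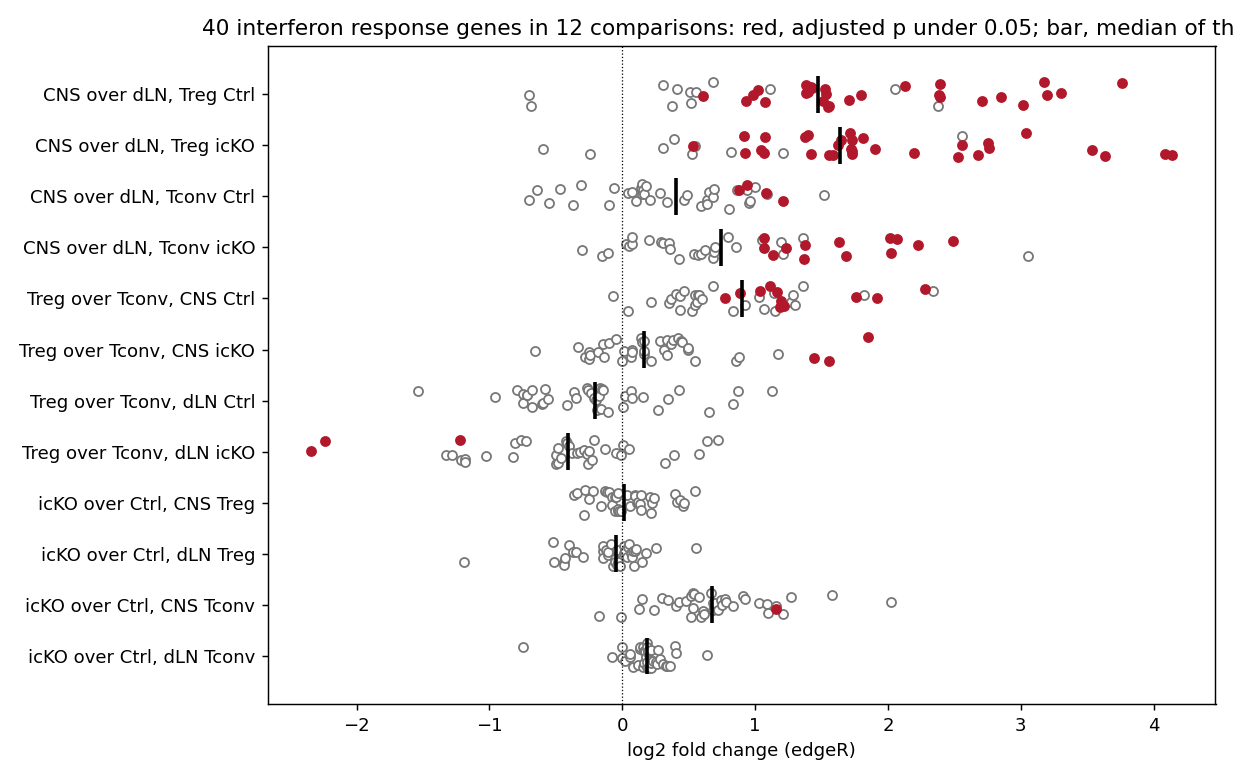
Log2 fold changes of the 40 genes (points, with vertical jitter) in 12 comparisons, red where the edgeR adjusted p is under 0.05, with the median of the 40 as a bar. All called genes lie right of 0 in the 4 CNS against dLN comparisons, and the icKO against Ctrl comparisons hold 1 called gene, in CNS Tconv cells.

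Within the CNS, Treg cells had higher levels than Tconv cells for 11 of the 40 genes in Ctrl mice and lower levels for 0, against 10.8% and 7.03% of all genes. The 11 were Oas1a, Usp18, Oasl1, Irf7, Dhx58, Stat2, Ifit2, Lgals3bp, Isg20, Ifi27l2a and Ddx60. Groups did not overlap, Treg higher, for 20 of the 40, against 13.8% of all genes, and the median log2 fold change was 0.90. In icKO mice Treg cells were higher for 3 genes, Ifi27l2a, Oas1a and Oasl1, and lower for 0, against 8.38% and 4.2% of all genes, with a median of 0.17. The called share in icKO mice was thus near that of all genes. These comparisons use the same CNS Treg libraries as those between tissues.

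Oas1a had 116, 182 and 133 CPM in CNS Treg Ctrl and 46.5, 32.9, 47.4 and 42.6 CPM in CNS Tconv Ctrl libraries, and 175, 90.4 and 207 against 45.7, 32.9, 56.6 and 79.8 CPM in icKO. Each Treg library was above each Tconv library in both genotypes, at 1.76 ± 0.30 and 1.55 ± 0.29 (edgeR adjusted p = 0.000229 and 0.000926). Ifi27l2a had 1501, 1872 and 1552 against 762, 791, 1249 and 747 CPM in Ctrl and 2116, 2206 and 2876 against 862, 546, 992 and 1131 CPM in icKO, again without overlap (0.89 ± 0.27 and 1.44 ± 0.27, edgeR adjusted p = 0.0234 and 0.000767). Usp18 was 1.92 ± 0.37 higher in Ctrl on the log2 scale (edgeR adjusted p = 0.000845). In icKO the CNS Tconv libraries had 86.7, 109, 171 and 176 CPM, of which 2 lay above the lowest CNS Treg library, and the value was 0.85 ± 0.37 (edgeR adjusted p = 0.136). Oasl1 was higher by 2.28 ± 0.45 and 1.85 ± 0.44 (edgeR adjusted p = 0.00102 and 0.00701), its icKO groups overlapping at CNS Treg icKO replicate 2. Dhx58, a regulator of the RIG-I-like sensors, had 111, 171 and 106 against 41.2, 50, 69.8 and 66.1 CPM in Ctrl (1.19 ± 0.30, edgeR adjusted p = 0.00723). Irf7 and Stat2 were higher by 1.19 ± 0.30 and 1.11 ± 0.28 in Ctrl (edgeR adjusted p = 0.00692 and 0.00767), and Stat2 had 63.1, 98.2, 72.0 and 98.7 CPM in the CNS Tconv Ctrl libraries. Irf9 was close in the 2 cell types, with 247, 225, 231 and 191 CPM in CNS Tconv Ctrl and 265, 229.8, 225 and 255 CPM in CNS Tconv icKO libraries.

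The Ctrl count of 11 was 3 without CNS Treg Ctrl replicate 2, 5 with all 26 libraries and 17 without CNS Treg Ctrl replicate 3. Without the 5 libraries with conflicting names it was 13, with Irf7, Isg20 and Lgals3bp no longer called, and the icKO count was 2, with Oasl1 no longer called. Monocyte and macrophage markers were 8553 CPM or more in the CNS Treg and 895 CPM or less in the CNS Tconv libraries, so the comparison also separates high from low myeloid transcripts, and their part was not tested. The comparison of the genotype effect between CNS Treg and CNS Tconv cells, an interaction, called 0 of the 40 genes (edgeR), against 0.178% of all genes called, with 7 at an unadjusted p under 0.05, against 15% of all genes. Its smallest p values were those of Dtx3l (-0.81 ± 0.33), Stat2 (-0.97 ± 0.40) and Ifit2 (-1.06 ± 0.44), with edgeR adjusted p of 0.243, 0.247 and 0.253, and DESeq2 and limma called 0 as well. The median of the 40 in this interaction was -0.66 to -0.60 over the main fit and all alternatives except those leaving out 1 library. Over all genes the median was -0.01 with all 26 libraries and 0 with the DESeq2 Wald test. Dtx3l, a ubiquitin ligase that works with PARP9, had 253, 446 and 322 CPM in CNS Treg Ctrl and 379, 179 and 375 CPM in CNS Treg icKO libraries, against 217, 185, 229 and 289.8 and 331, 264, 415 and 472 CPM in CNS Tconv Ctrl and icKO. Its Treg libraries of the 2 genotypes overlapped.

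**Figure D4:**
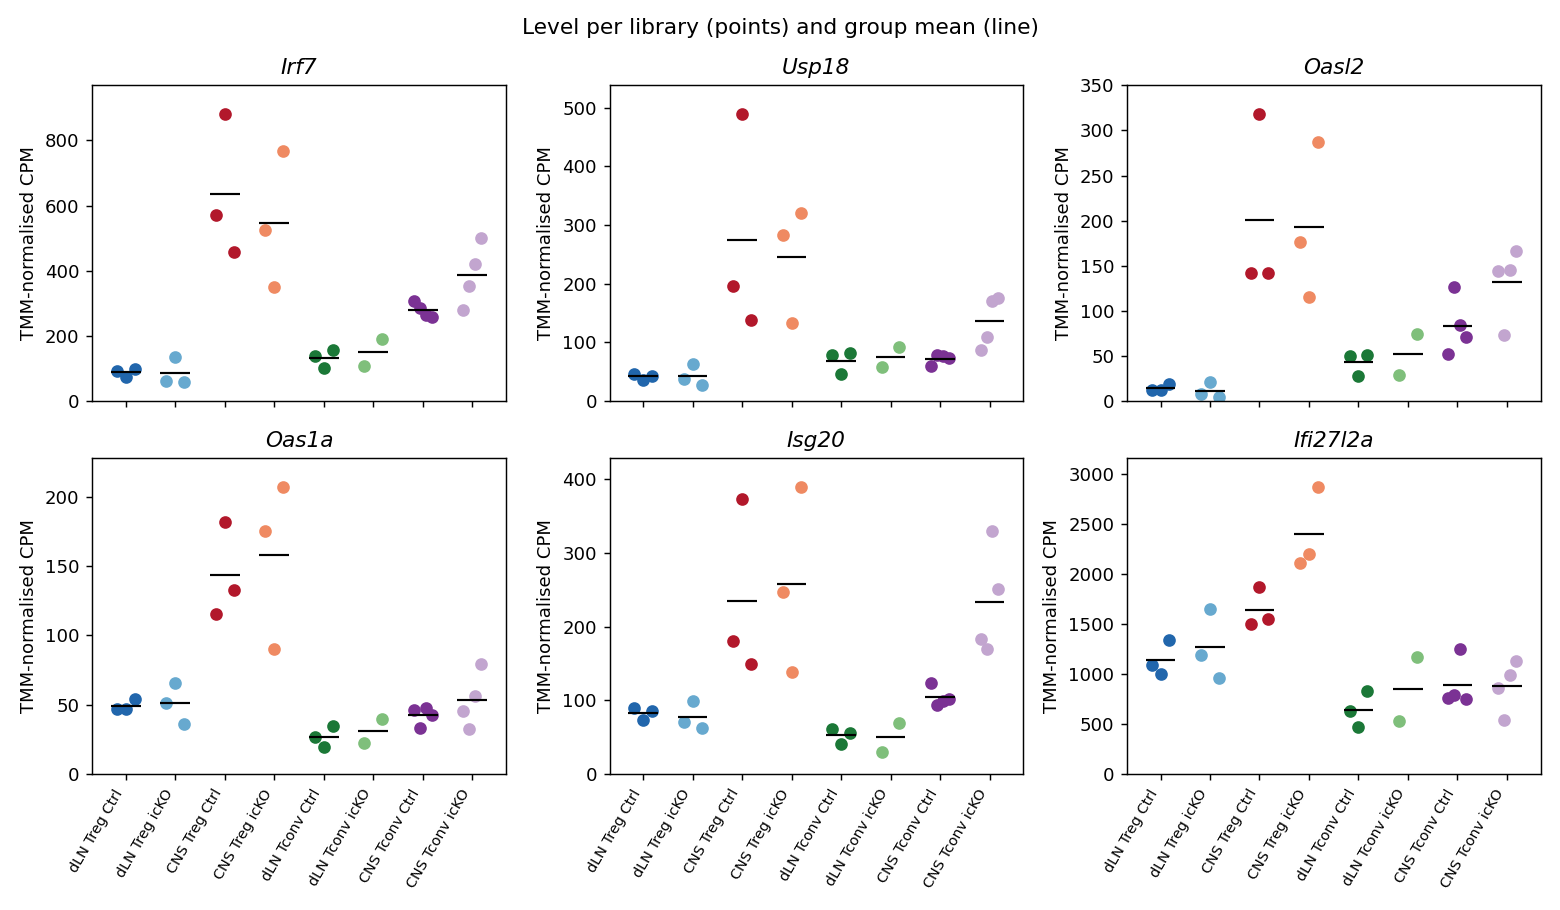
TMM-normalised CPM of 6 interferon response genes in each of 25 libraries (points, replicates from left to right) with the group mean as a line, by group; each vertical axis starts at 0. Irf7, Usp18, Oasl2 and Oas1a have their highest group means in CNS Treg libraries, Isg20 is higher in all 4 CNS Tconv icKO than in all 4 CNS Tconv Ctrl libraries, and Ifi27l2a is higher in Treg than in Tconv libraries of the CNS.

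In the dLN, Treg cells of icKO mice had lower levels than Tconv cells of 3 of the 40 genes and higher levels of 0, against 4.47% and 5.44% of all genes, so the called share was near that of all genes. They were Oasl1, with 2.49, 5.71 and 2.95 CPM in dLN Treg icKO and 17.9 and 19.95 CPM in dLN Tconv icKO libraries, Oasl2, with 7.74, 20.8 and 4.23 and 28.6 and 74.6 CPM, and Ifit2, with 31.7, 44.2 and 40.9 and 75.2 and 107 CPM. Every Treg library was below both Tconv libraries, at -2.34 ± 0.55, -2.24 ± 0.55 and -1.22 ± 0.37 on the log2 scale (edgeR adjusted p = 0.00711, 0.0108 and 0.0368). The group of 2 Tconv libraries limits this: the count was 0 without dLN Tconv icKO replicate 2, 1 without dLN Treg icKO replicate 1 or 3, and 1 with all 26 libraries. Summed markers of plasmacytoid dendritic cells were 85.0 to 90.6 CPM in dLN Treg icKO and 158 to 289 CPM in dLN Tconv icKO libraries, without overlap. In Ctrl they were 61.0 to 101 and 114 to 385 CPM, also without overlap, and their part was not tested.

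In Ctrl mice the same comparison called 0 of the 40 genes (edgeR), against 11.5% of all genes called, with 5 at an unadjusted p under 0.05, against 24.4% of all genes. Oasl2 had 12.6, 12.7 and 19.0 CPM in dLN Treg and 49.99, 27.9 and 51.1 CPM in dLN Tconv libraries (-1.54 ± 0.51, edgeR adjusted p = 0.0509), and these groups did not overlap. Ifi27l2a had 1091, 1007 and 1341 against 633, 467 and 832 CPM (0.83 ± 0.29, edgeR adjusted p = 0.0657) and Oas1a 46.7, 47.2 and 54.5 against 26.8, 19.7 and 34.6 CPM (0.87 ± 0.32, edgeR adjusted p = 0.0845), with Treg higher and no overlap. Treg libraries lay above all Tconv libraries for 5 genes and below all for 10, shares that were 19.3% and 19% over all genes. The count of 0 depends on the model. It was 13 when edgeR was fitted to these 2 groups alone (4 higher, 9 lower), 7 with limma voom and 3 with the DESeq2 Wald test. Shares of all genes called by these models are not given, so these counts cannot be set against them.

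The question of the knockout, icKO against Ctrl, gave few differences in these genes. In CNS Treg cells 0 of the 40 were called and 0 had an unadjusted p under 0.05 (edgeR), against 0% and 6.78% of all genes; DESeq2 and limma also called 0. The median log2 fold change of the 40 was 0.01, from -0.36 to 0.55, and 20 of the 40 were above 0, against 49% of all genes. Ifi27l2a had the smallest p, from 1501, 1872 and 1552 CPM in Ctrl to 2116, 2206 and 2876 CPM in icKO, without overlap, which held in this direction for 1 of the 40 genes and 3.99% of all genes (0.55 ± 0.29, edgeR adjusted p = 0.762). Bst2 (0.47 ± 0.29, edgeR adjusted p = 0.812) and Trim30a (0.43 ± 0.28, edgeR adjusted p = 0.827) followed with overlapping groups. Trim30a, a relative of the restriction factor TRIM5, had 170.2, 253 and 224 CPM in Ctrl and 286, 185 and 402 CPM in icKO. In Treg cells Irf7, Irf9 and Stat2 overlapped between the genotypes in both tissues.

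In dLN Treg cells 0 of the 40 were called and 1 had an unadjusted p under 0.05 (edgeR), against 0% and 1.08% of all genes; DESeq2 and limma called 0. That gene was Oasl1, at -1.19 ± 0.51 (edgeR adjusted p = 1), each icKO library being below each Ctrl library, which held for 3.99% of all genes. Ddx60, with 27.6, 32.2 and 33.0 CPM in Ctrl and 23.6, 28.02 and 12.9 CPM in icKO (-0.52 ± 0.35, edgeR adjusted p = 1) and Irf9 (0.17 ± 0.14, edgeR adjusted p = 1) came next. In dLN Tconv cells 0 were called and 1 had an unadjusted p under 0.05 (edgeR), against 0% and 1.46% of all genes; DESeq2 and limma called 0. Samd9l, an inhibitor of translation, had 55.3, 59.8 and 67.5 CPM in Ctrl and 87.6 and 101 CPM in icKO libraries (0.63 ± 0.30, edgeR adjusted p = 1). The values of Samd9l did not overlap, as was so for 5 of the 40 genes, all higher in icKO, and for 8.1% of all genes in that direction. Ifi27l2a, with 530.2 and 1172 CPM in icKO (0.40 ± 0.32), and Zbp1, with 184, 120.4 and 159.8 and 157 and 239.8 CPM (0.36 ± 0.32), overlapped and had an edgeR adjusted p of 1. The median log2 fold change of the 40 was 0.19 and 36 were above 0, against 47.4% of all genes. Replicate 2 was the highest library for Irf7, Usp18, Oasl2, Isg15 and Ifit3 in both dLN icKO groups. With all 26 libraries the median of the 40 in dLN Tconv cells was -0.27, against 0.19 without the odd library.

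In CNS Tconv cells 1 of the 40 genes, Isg20, rose in icKO and 0 fell, against 1.58% and 1.53% of all genes (3.1% in either direction), so the called share was near that of all genes. The 40 nevertheless lay mostly on one side: 38 had a log2 fold change above 0, against 49.9% of all genes, with a median of 0.67, and 22 had an unadjusted p under 0.05, against 18.1% of all genes. Each icKO library lay above each Ctrl library for 9 of the 40, against 4.86% of all genes. Stat2 was among them, at 63.1 to 98.7 CPM in Ctrl and 100.3 to 183 CPM in icKO libraries, while Irf7 and Irf9 overlapped. Isg20 had 124, 94.5, 99.4 and 102 CPM in Ctrl and 183, 170.1, 330.4 and 252 CPM in icKO libraries, without overlap (1.15 ± 0.31, edgeR adjusted p = 0.0456). Ddx60, a helicase that aids RIG-I, had 18.7, 25.4, 14.8 and 37.9 and 60.4, 33.8, 51.9 and 59.2 CPM, overlapping at Ctrl replicate 4 and icKO replicate 2 (1.09 ± 0.30, edgeR adjusted p = 0.0507). Oas3 had 74.0, 71.5, 155 and 123 and 198, 175, 306 and 340.1 CPM without overlap (1.27 ± 0.36, edgeR adjusted p = 0.0584). For Ifit1, whose promoter is printed above, each icKO library (441, 358, 608 and 683 CPM) was also above each Ctrl library (211, 231, 228 and 236 CPM), with 1.21 ± 0.39 on the log2 scale (edgeR adjusted p = 0.0996); this gene was picked after its values were seen. Of the 16 monocyte and macrophage markers 0 were called between these groups (edgeR), with 0 at an unadjusted p under 0.05, and their sums overlapped, at 102 to 895 CPM in Ctrl and 190.3 to 555.5 CPM in icKO. Summed Treg markers were 544 to 708 CPM in Ctrl and 676 to 981 CPM in icKO libraries, with 1 of the 7 called higher. Those of CD8 T and NK cells were 824 to 1242 against 1025 to 2028 CPM, with 0 of the 11 called and 2 at an unadjusted p under 0.05 (edgeR). The part of either list in the genotype difference was not tested.

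For the genotype comparison in CNS Tconv cells, shares of all genes called are not given for the alternative fits, except that of all 26 libraries. The counts of the other alternatives cannot be set against such a share. The CNS Tconv count changed with single libraries. It was 0 without CNS Tconv Ctrl replicate 1, 2 or 3 or CNS Tconv icKO replicate 1, 3 or 4, 4 without CNS Tconv Ctrl replicate 4 and 7 without CNS Tconv icKO replicate 2. The 4 were Ddx60, Dtx3l, Ifih1 and Samd9l, so Isg20 was not called in 7 of the 8 fits that leave out 1 CNS Tconv library. It was 10 with the DESeq2 Wald test, 0 with all 26 libraries (0.0383% of all genes higher) and 0 without the 5 libraries with conflicting names, which include 3 of the 4 icKO libraries. Whether this genotype difference was larger in CNS than in dLN Tconv cells was tested as an interaction, which called 0 of the 40 (edgeR) and 0% of all genes, with 2 at an unadjusted p under 0.05, against 8.16% of all genes; DESeq2 and limma called 0. Isg20 (1.23 ± 0.51), Mx1 (2.77 ± 1.33) and Trim25 (0.62 ± 0.33) had its smallest p values, with edgeR adjusted p of 0.535, 0.61 and 0.668. Mx1 had 0, 4.18, 7.14 and 8.25 CPM in CNS Tconv Ctrl and 10.6, 13.9, 24.3 and 30.6 CPM in CNS Tconv icKO libraries, near the bottom of the range of the 40. C57BL/6 mice carry a defective Mx1 gene, whose transcript is still counted here.

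The rest of the pathway was read from lists of related genes. Of the ligands, 18 genes for interferon beta, alpha, epsilon, kappa and zeta were in the tables and 0 passed the filter; their summed level was 0 to 0.263 CPM in the 25 libraries. Among the receptor and kinase genes, Ifnar2 rose in CNS relative to dLN Treg cells of both Ctrl and icKO mice. Ifnar2, the receptor chain that binds ligand most tightly, had 182, 161 and 148 CPM in CNS Treg Ctrl and 115, 123 and 116 CPM in dLN Treg Ctrl libraries, without overlap (0.47 ± 0.14, edgeR adjusted p = 0.0187; in icKO 0.44 ± 0.14, edgeR adjusted p = 0.0268). Ifnar1, the partner chain, was not called between tissues in Treg cells (0.09 and -0.09). Between the cell types of the CNS, Ifnar2 was higher in Treg cells in Ctrl and icKO (0.65 ± 0.13 and 0.80 ± 0.13, edgeR adjusted p = 0.00116 and 0.000203), Ifnar1 in Ctrl (1.26 ± 0.27, edgeR adjusted p = 0.0025), and Jak1 was lower in icKO (-0.44 ± 0.14, edgeR adjusted p = 0.036). In the dLN, Jak1 was lower in Treg cells of both genotypes (-0.80 and -0.71, edgeR adjusted p = 0.000705 and 0.00502). Of all genes 13.3% and 13.1% rose between tissues in Treg cells of Ctrl and icKO mice. In the CNS 10.8% and 8.38% were higher in Treg cells, and 4.2% were lower in icKO. In the dLN 5.48% and 4.47% were lower. Monocyte and macrophage markers were higher in CNS Treg than in dLN Treg and CNS Tconv libraries, and their part was not tested.

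Of 9 genes that restrain interferon signalling, 4 rose and 2 fell in CNS relative to dLN Treg cells of Ctrl mice, and 3 rose and 2 fell in icKO mice. Of all genes 13.3% rose and 8.55% fell in Ctrl, and 13.1% and 9.41% in icKO mice. Socs3, an inhibitor of JAK kinases, was among those that rose in Ctrl (2.08 ± 0.34, edgeR adjusted p = 0.000241), and Ptpn11, a phosphatase, among those that fell (-1.38 ± 0.26, edgeR adjusted p = 0.000832). Of 18 genes of nucleic acid sensing and interferon induction, 5 rose and 0 fell there in Ctrl and 5 rose and 1 fell in icKO mice, beside those same shares of all genes. Those that rose included Unc93b1, which brings Toll-like receptors to endosomes (3.42 ± 0.33, edgeR adjusted p = 5.74e-07) and Irf5, a factor that drives interferon genes (2.02 ± 0.31, edgeR adjusted p = 0.00013), and the same Treg libraries differ in the myeloid markers given above. In CNS against dLN Tconv cells 0 of the 9 restraining genes were called in Ctrl and 0 rose and 2 fell in icKO, where 6.3% of all genes fell. CNS Tconv cells of icKO mice had lower Ptpn6 (-0.89 ± 0.17, edgeR adjusted p = 0.00619) and Pias1 (-0.53 ± 0.11, edgeR adjusted p = 0.0135) than those of Ctrl mice. Neither call was checked without the 5 libraries with conflicting names. SHP-1, the product of Ptpn6, and PIAS1 both restrain JAK-STAT signalling. These 2 were the ones of the 9 that fell between the genotypes there, and 1.53% of all genes fell. The summed level of the 9 overlapped, at 1628 to 2036 CPM in CNS Tconv Ctrl and 1573 to 1845 CPM in CNS Tconv icKO libraries. Whether the lower Ptpn6 and Pias1 bear on the interferon response genes was not tested.

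Of 51 other interferon-stimulated genes, 38 rose in CNS relative to dLN Treg cells and 1 fell in Ctrl mice, and 41 rose and 0 fell in icKO mice, against 13.3% and 13.1% of all genes higher. The median log2 fold changes were 0.86 and 0.99, against 0.02 and 0.04 over all genes. The smallest p values belonged to Ifitm1 (6.24 ± 0.57, edgeR adjusted p = 2.87e-07) and Ifitm3 (5.56 ± 0.56, edgeR adjusted p = 1.11e-06), membrane proteins that block virus entry. The same Treg libraries differ in the myeloid markers given above, whose part was not tested. Of 27 genes more typical of interferon gamma, 18 and 17 rose in the same comparisons and 0 fell, against the same 13.3% and 13.1% of all genes, with medians of 0.79 and 0.76. They included H2-D1 (0.78 ± 0.14, edgeR adjusted p = 0.00042) and Tapbp (0.79 ± 0.15, edgeR adjusted p = 0.000674), of antigen presentation. Many genes of either list respond to both kinds of interferon, so these counts do not separate them. In CNS against dLN Tconv cells 12 of the 51 rose and 1 fell in Ctrl, and 19 rose and 1 fell in icKO, against 5.97% and 7.81% of all genes higher. Between genotypes in CNS Tconv cells Parp12 (1.53 ± 0.35, edgeR adjusted p = 0.0186) and Tdrd7 (1.22 ± 0.28, edgeR adjusted p = 0.0239) rose and 0 fell, of the 51, against 1.58% of all genes higher. Neither call was checked without the 5 libraries with conflicting names. With all 26 libraries 0.0383% of all genes were higher in that comparison.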

How the data were processed

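Poly(A) transcript levels were measured in 26 libraries of purified mouse T cells, made with SMART-Seq v4, a kit that does not mark strand, per the labels' protocols. Reads were handled with FastQC, Trimmomatic, STAR 2.5.3a and RSEM 1.2.28 on mm10, per the submitters' processing notes. The deposited tables hold RSEM expected counts and TPM per gene, as the authors estimated them. After rounding to whole numbers, the expected counts were tested with edgeR 4.0.16 in R 4.3.3: filterByExpr, TMM, 8 group means, quasi-likelihood test and Benjamini-Hochberg adjustment over 13500 genes, called at an adjusted p under 0.05. No row lacked a gene name. TPM was used only for levels between genes. The fit used 25 libraries, with 12.4 to 18.5 M counts each. The library labelled dLN Tconv icKO replicate 3 was left out, and a fit of all 26 is given as an alternative.

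The 40 genes, the other lists and the tests were chosen with earlier results of these data known. Values in each library are given for Irf7 and, in most groups, for Irf9 and Stat2. They are also given for up to 6 called genes with the smallest p in each direction. With fewer than 3 calls, they are given for the 3 with the smallest p. From other lists, up to 4 called genes are named per comparison, besides Ifnar1 and Ifnar2; 1 further gene of these lists is not reported here. Promoters came from a RefSeq table on GRCm38.p6 and gene positions from GENCODE annotation on GRCm38. Those printed belong to genes called in both Treg tissue comparisons with at least 2 core matches before the start site. Alternatives were DESeq2 1.42.0, limma 3.58.1 (voom), DESeq2 size factors, other filters, the compared groups alone, a replicate block, leaving out each library and leaving out 5 libraries with conflicting names. The scripts were tested on simulated data.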

Additional observations from a re-analysis of the deposited data

Results flagged for a closer look

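In Ctrl mice 5 of the 40 genes had a tissue difference that itself differed between Treg and Tconv cells, by an edgeR interaction test. The difference of log2 fold changes was 1.77 for Irf7 (edgeR adjusted p = 0.0253), 1.90 for Ifit2 (edgeR adjusted p = 0.0209), 3.24 for Oasl1 (edgeR adjusted p = 0.00786), 2.81 for Oasl2 (edgeR adjusted p = 0.0209) and 2.64 for Usp18 (edgeR adjusted p = 0.00807). Each was larger in Treg cells, and each was past the threshold with DESeq2 and limma too but not with all 26 libraries. Irf7 was also not past it without the 5 CNS Tconv libraries with conflicting names.

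Among the 80 groups of 4 CNS Tconv libraries tested (40 genes in each genotype), 4 had a library far from the other 3. Chance gives about 1 in 20, which is the share found here, and all 80 groups draw on the same 8 libraries. Ifi27l2a stood at 1249 CPM in CNS Tconv Ctrl replicate 3, the highest of its group, and Ifih1 at 55.9 CPM in CNS Tconv Ctrl replicate 4. Ifi35 stood at 140.1 CPM in CNS Tconv icKO replicate 1 and Ifih1 at 39.5 CPM in CNS Tconv icKO replicate 2, each the lowest of its group. None of these 3 genes was called between the genotypes in CNS Tconv cells by edgeR, and Ifih1 was called by DESeq2. CNS Tconv Ctrl replicates 3 and 4 and CNS Tconv icKO replicate 2 are among the 5 libraries with conflicting names.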

How the results depend on the processing

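Counts below are of the 40 genes called. Shares of all genes called are not given for these settings beyond those stated above, so the counts cannot be set against them. With all 26 libraries they were 16 (tissue, Treg Ctrl), 15 (tissue, Treg icKO), 1 (tissue, Tconv Ctrl), 7 (tissue, Tconv icKO), 5 (Treg against Tconv, CNS Ctrl), 1 (dLN icKO), 0 (genotype, CNS Tconv) and 0 (tissue by cell type). DESeq2's Wald test gave 8 (tissue, Tconv Ctrl), 17 (CNS Ctrl), 3 (dLN Ctrl), 5 (dLN icKO), 10 (genotype, CNS Tconv) and 9 (tissue by cell type). Limma voom gave 22 (tissue, Tconv icKO), 7 (dLN Ctrl), 6 (dLN icKO), 2 (genotype, CNS Tconv) and 8 (tissue by cell type). With no filter the dLN Ctrl count was 1. A filter of 10 CPM in 3 libraries gave 2 (dLN Ctrl) and 3 (genotype, CNS Tconv). The compared groups alone gave 13 (dLN Ctrl), 8 (dLN icKO) and 2 (genotype, CNS Tconv). Without the 5 libraries with conflicting names the counts were 0 (tissue, Tconv icKO) and 0 (genotype, CNS Tconv).

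Leaving out 1 library at a time gave 23 to 28 and 26 to 33 (tissue, Treg Ctrl and icKO), 0 to 5 and 1 to 14 (tissue, Tconv Ctrl and icKO), 3 to 17 and 2 to 3 (CNS Ctrl and icKO), 0 to 1 and 0 to 4 (dLN Ctrl and icKO), 0 to 7 (genotype, CNS Tconv) and 2 to 7 (tissue by cell type). The other 5 counts were 0 throughout. The sign turned once among 64 named values: Ifi27l2a between genotypes in dLN Tconv cells went from 0.40 to -0.28 without dLN Tconv icKO replicate 2, and to 0.86 without dLN Tconv icKO replicate 1.

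Same-numbered libraries did not deviate together in every pair of groups, so whether the numbers pair them was not settled. Correlations of deviations from the group mean over all genes, Treg with Tconv, were 0.062, 0.155 and 0.037 in dLN Ctrl. They were 0.087 and 0.104 in dLN icKO, 0.065, 0.173 and 0.167 in CNS icKO, and 0.072, -0.039 and -0.012 in CNS Ctrl. The main fit treats the libraries as unpaired. A fit with the replicate block gave 2 (genotype, CNS Tconv: Ddx60 and Trim25, with Isg20 not called) and 6 (tissue, Tconv icKO), and other counts within 1.5 times. With all 26 libraries the median of all genes shifted by -0.36 between genotypes in dLN Tconv cells, and that of the 40 was -0.27. It also shifted by 0.22 between tissues in Tconv icKO, 0.30 between dLN icKO cell types and 0.29 in the genotype by tissue test. The group of 2 dLN Tconv icKO libraries limits every result that uses it.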
